A study of Mus musculus with 9 samples.

Results

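A set of 10 transcription factor genes of gut segment and epithelial lineage, taken by symbol, was followed in RNA from mouse intestine. They are the caudal homeobox genes Cdx1 and Cdx2, the nuclear receptor genes Hnf4a and Hnf4g, the zinc finger genes Gata4, Gata6, Klf4 and Klf5, and the homeobox genes Pdx1 and Onecut2. All 10 of 10 were among the 54532 genes of the deposited table, and 8 of them were among the 15391 genes abundant enough to test. The study asks whether lycopene, a carotenoid, lessens injury of the intestine by abdominal irradiation. It has 3 groups of 3 libraries. Control mice received corn oil. IR mice received corn oil and 12 Gy of radiation to the whole abdomen on day 4. IR+LYC mice received lycopene in corn oil at 10 mg/kg per day by gavage for 10 days and the same irradiation on day 4. Corn oil was thus common to all groups, and intestine was taken at the end of the experiment. Mice given lycopene alone are not analysed here. Strain, age and gut segment are not given in the labels, nor is it said that the libraries are separate animals, so p-values measure only the spread between these samples.

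As background, CDX2 keeps the intestinal epithelium intestinal, and mouse intestine that loses it takes on gastric features. CDX1 is its close relative and is found mainly in the crypts. HNF4A and its paralog HNF4G activate the lipid handling and brush border genes of absorptive enterocytes. GATA4 is found in the duodenum and jejunum and is absent from the distal ileum of the mouse, where GATA6 persists. KLF4 belongs to the differentiated cells of the villus and KLF5 to the dividing cells of the crypt. PDX1 acts in the duodenum, gastric antrum and pancreas, and ONECUT2 is a cut homeobox factor of the proximal small bowel.

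Levels are FPKM, fragment counts normalised for transcript length and sequencing depth, so that different genes can be compared per length. The values of a library go back to 17803889 to 22414949 reads. Spearman correlations between libraries of 1 group ran from 0.874, for IR+LYC 1 with IR+LYC 2, to 0.981. On the first principal component (61.2% of the variance), IR 2, IR+LYC 1 and IR+LYC 3 had the highest positions, at 44.3, 66.6 and 35.1. The same 3 libraries had been divided by the authors by 1.16 to 1.26 times their recovered reads, against 0.854 to 0.993 times in the other 6. IR+LYC 2 differed from the other IR+LYC libraries in most of what follows, so results are also given without it. Summed FPKM of 6 epithelial markers ran from 3296 to 4501 over all libraries. That of 8 smooth muscle markers was 431 to 562 in control and 1016 to 1349 in the IR libraries, and it was 2160, 417 and 1397 in IR+LYC 1 to 3. Fewer cells of a type and less RNA per cell cannot be told apart in such bulk samples.

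The RefSeq promoter table, on build GRCm38.p6, held windows for Cdx2, Hnf4a, Klf4 and Pdx1, each from 250 bases before the start site to 50 after it. Hnf4a had 2 windows, 40298 bases apart. Shown are the upstream Hnf4a window, chr2:163506607-163506906 on the plus strand, and the Klf4 window, chr4:55532426-55532725 on the minus strand, because they are the windows in which motifs of the members' own families were found. Capitals mark matches to the motifs listed after the sequences.
Hnf4a upstream window: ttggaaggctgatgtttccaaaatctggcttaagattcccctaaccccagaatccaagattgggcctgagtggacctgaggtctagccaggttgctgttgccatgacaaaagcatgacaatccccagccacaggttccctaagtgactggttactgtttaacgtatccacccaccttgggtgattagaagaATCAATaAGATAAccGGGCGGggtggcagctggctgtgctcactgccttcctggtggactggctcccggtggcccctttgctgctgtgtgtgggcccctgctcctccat
Klf4 window: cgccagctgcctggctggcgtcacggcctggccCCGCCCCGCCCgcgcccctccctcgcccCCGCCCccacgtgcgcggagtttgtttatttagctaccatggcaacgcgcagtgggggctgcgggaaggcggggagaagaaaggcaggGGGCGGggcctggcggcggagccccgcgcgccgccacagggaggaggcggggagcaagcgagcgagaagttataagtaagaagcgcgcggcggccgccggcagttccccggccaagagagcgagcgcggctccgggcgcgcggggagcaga
In the Hnf4a window, capitals mark in order the ONECUT letters ATTGAT (minus strand, at -59 from the start site), the GATA letters AGATAA (plus strand, at -52) and the GC box GGGCGG bound by KLF and SP factors (plus strand, at -44). None of these 3 overlaps another. The Klf4 window held 4 GC boxes, at -217, -212 and -189 on the minus strand and at -101 on the plus strand, of which the first 2 overlap by 1 base. The letters TTTATG for CDX and CAAAGTC for HNF4 were searched as well, on both strands, and were found in none of the 5 windows. Of 32851 mouse promoters of the same length, 11.2% held the GATA letters, 7.54% the ONECUT letters, 35.7% the GC box, 11.9% the CDX letters and 4.44% the HNF4 letters. A match is a description of these letters and not a bound site, and the gene totals do not say which start site was used.

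In the control intestine, Hnf4a was the most abundant of the 10 at 216 ± 28.8 FPKM (SD, n = 3), followed by Hnf4g at 173 ± 32.7. Klf4 at 102 ± 13.5, Cdx1 at 93.6 ± 9.95 and Cdx2 at 92.1 ± 8.52 came next. Klf5 stood at 55.8 ± 5.14, Gata4 at 29.0 ± 7.04 and Gata6 at 18.1 ± 3.35 FPKM. Onecut2, at 0.462 ± 0.607, and Pdx1, at 0.0741 ± 0.0613 FPKM, were far below. The ranges of the 3 control libraries overlapped between neighbours for Hnf4a and Hnf4g, Klf4 and Cdx1, Cdx1 and Cdx2, and Onecut2 and Pdx1. The other neighbours in this order did not overlap.

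**Figure D1:**
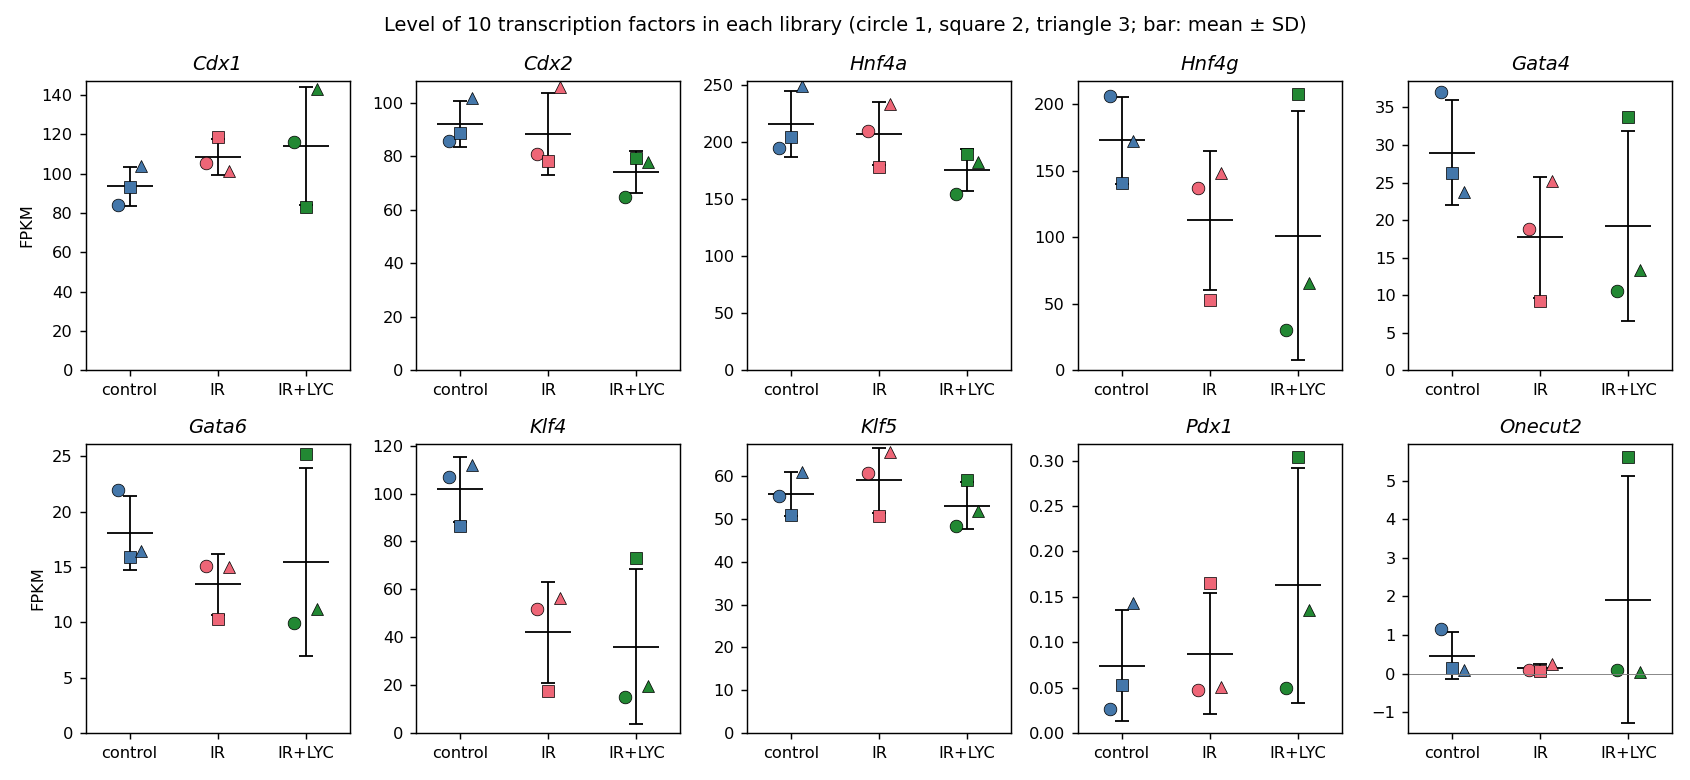
Level in FPKM (vertical axes, linear) of each of the 10 genes in the 9 libraries, by group (horizontal axes), with the replicate number as symbol shape and bars for the mean ± SD of 3 libraries. Hnf4g, Gata4, Gata6 and Klf4 spread widely in the IR+LYC group, where library 2 is high, and Onecut2 is above 1 FPKM in control 1 and IR+LYC 2.

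Cdx1 (chr18:61018862-61036199, minus strand) was at 83.9, 93.1 and 104 FPKM in the controls, at 105, 118 and 101 in the IR libraries, and at 116, 82.9 and 143 in IR+LYC. The highest value belonged to IR+LYC 3 and the lowest to IR+LYC 2, and the groups overlapped as deposited. IR lay above control with no overlap, however, per recovered read total (98.2 to 142 against 73.4 to 93.3) and per epithelial marker (97.6 to 109 against 92.8 to 92.9). The same held for 26.0% of all genes tested per recovered read total and for 8.97% per epithelial marker. Its log2 difference, on log2(FPKM + 1), was 0.21 in IR against control (SE 0.21, 95% interval -0.26 to 0.69), and limma's adjusted p was 0.710. Cdx2 (chr5:147300805-147307270, minus strand) was at 85.8, 88.7 and 102 FPKM in the controls, at 80.8, 78.3 and 106 in the IR libraries, and at 65.0, 79.2 and 77.8 in IR+LYC. All 3 IR+LYC libraries lay below all 3 controls as deposited and per epithelial marker, while IR overlapped both groups. Per recovered read total Cdx2 was at 67.7 to 90.0 in IR+LYC and 75.0 to 91.4 in the controls, which overlap. The difference in IR+LYC against control was -0.31 (SE 0.16, 95% interval -0.69 to 0.06) with a limma adjusted p of 0.383. Groups that do not overlap in that comparison, with IR+LYC lower, were found for 8.64% of all genes tested as deposited and 5.67% per epithelial marker. The log2 ratio of Cdx1 to Cdx2 within a library, which at these levels hardly depends on the scaling of libraries, was 0.02 ± 0.05 in the controls, 0.30 ± 0.34 in the IR libraries and 0.59 ± 0.46 in IR+LYC (SD, n = 3). It ran from -0.03 to 0.07 in the controls, and it reached 0.60 in IR 2, 0.84 in IR+LYC 1 and 0.88 in IR+LYC 3. An exact permutation test of the F statistic over the 3 groups gave p = 0.189, and 0.304 after adjustment over 5 ratios. The smallest p that its 1680 assignments of libraries allow is 0.00357.

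Hnf4a (chr2:163506808-163572910, plus strand) was at 195, 204 and 249 FPKM in the controls, at 209.9, 178 and 234 in the IR libraries, and at 154, 189.8 and 182 in IR+LYC. All 3 IR+LYC libraries were again below all controls as deposited and per epithelial marker, with IR overlapping both. That was so for 8.64% of all genes tested as deposited and 5.67% per epithelial marker, whatever the place of IR. Per recovered read total they overlapped the controls, at 162 to 211 against 171 to 223. The difference in IR+LYC against control was -0.29 (SE 0.17, 95% interval -0.69 to 0.10), with a limma adjusted p of 0.407. Hnf4g (chr3:3508030-3658052, plus strand) was at 206, 141 and 172 FPKM in the controls, at 137, 52.9 and 148 in the IR libraries, and at 30.6, 207 and 65.4 in IR+LYC. Its highest library was 6.78 times its lowest, and both extremes belonged to the IR+LYC group. Its difference was -0.73 in IR against control (SE 0.66, 95% interval -2.26 to 0.79, limma adjusted p = 0.697), and -0.26 without IR 2. In IR+LYC against control it was -1.18 (SE 0.66, 95% interval -2.70 to 0.34, limma adjusted p = 0.395), and -0.55 without IR+LYC 1. Without IR+LYC 2, limma called Hnf4g lower in IR+LYC against control, with a difference of -1.91 and an adjusted p of 0.0334. In that setting 26.8% of all genes were called, and 15.5% were called lower. The log2 ratio of Hnf4a to Hnf4g was 0.33 ± 0.36 in the controls, 1.01 ± 0.64 in the IR libraries and 1.23 ± 1.25 in IR+LYC. It was -0.08 in control 1 and -0.13 in IR+LYC 2, where Hnf4g exceeded Hnf4a, and 2.33 in IR+LYC 1 (exact permutation p = 0.446 over the 3 groups, 0.446 adjusted). Every IR library, at 0.61 to 1.75, was above every control, at -0.08 to 0.54, while IR+LYC overlapped both groups. How many other gene pairs separate in this way was not computed. An antisense gene, Hnf4aos, lies opposite Hnf4a at 0.111 to 2.92 FPKM. Whether reads were counted by strand is not stated, so reads of such pairs may be shared.

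Gata4 (chr14:63198922-63271692, minus strand) was at 37.0, 26.2 and 23.8 FPKM in the controls, at 18.7, 9.19 and 25.2 in the IR libraries, and at 10.6, 33.7 and 13.4 in IR+LYC. IR 2, IR+LYC 1 and IR+LYC 3 were the lowest, and control 1 and IR+LYC 2 were the highest. Its difference in IR against control was -0.76 (SE 0.47, 95% interval -1.83 to 0.32, limma adjusted p = 0.646), and -0.37 without IR 2. The difference between IR+LYC and control was -0.71 (limma adjusted p = 0.437), or -0.40 when IR+LYC 1 was left out and -1.19 when IR+LYC 2 was. Gata6 (chr18:11052508-11085635, plus strand) was at 21.9, 15.9 and 16.5 FPKM in the controls, at 15.0, 10.3 and 15.0 in the IR libraries, and at 9.93, 25.2 and 11.2 in IR+LYC. Every IR library was below every control as deposited, by a small margin, and IR+LYC 2 was above all of them. Under the other scalings IR 1 was above control 3, at 14.9 against 14.8 per recovered read total and 15.1 against 14.7 per epithelial marker. Of all genes tested, 14% were lower in IR than in control with no overlap. The difference of Gata6 in IR against control was -0.41 (SE 0.33, 95% interval -1.16 to 0.34, limma adjusted p = 0.679), -0.24 without IR 2 and -0.27 without control 1. The difference between IR+LYC and control was -0.32 (limma adjusted p = 0.595), or -0.18 when control 1 was left out, -0.08 when IR+LYC 1 was and -0.16 when IR+LYC 3 was. Without IR+LYC 2, Gata6 was called lower in IR+LYC than in the controls, at -0.71 with a limma adjusted p of 0.0397. So were 15.5% of all genes in that setting. The log2 ratio of Gata4 to Gata6 was 0.67 ± 0.12 in the controls, 0.30 ± 0.45 in the IR libraries and 0.26 ± 0.16 in IR+LYC (exact permutation p = 0.243, 0.304 adjusted). Every IR+LYC library, at 0.09 to 0.42, was below every control, at 0.53 to 0.75, while IR overlapped both groups. The share of other gene pairs that do so was not computed. The transcript 1010001N08Rik, on the strand opposite Gata6 and overlapping it, was at 1.13 to 5.04 FPKM.

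Klf4 (chr4:55527143-55532466, minus strand), the gene of the promoter with 4 GC boxes, had the largest differences of the 8 tested members in all but the comparison of the irradiated groups. It was at 107, 86.4 and 112 FPKM in the controls, at 51.8, 17.6 and 56.6 in the IR libraries, and at 15.0, 73.3 and 19.8 in IR+LYC. All 6 irradiated libraries lay below all 3 controls under each of the 3 scalings, and the irradiated groups overlapped each other. For how many of all genes the same holds was not computed. The mean went from 102 ± 13.5 FPKM in control to 42.0 ± 21.2 in the IR libraries and 36.0 ± 32.4 in IR+LYC (SD, n = 3). The difference in IR against control was -1.41 (SE 0.61, 95% interval -2.82 to 0.00249, limma adjusted p = 0.594), and -0.89 without IR 2. In IR+LYC against control it was -1.81 (SE 0.61, 95% interval -3.22 to -0.40, limma adjusted p = 0.327), and in IR+LYC against IR it was -0.40 (95% interval -1.81 to 1.01, limma adjusted p = 0.994). Without IR+LYC 2, the difference in IR+LYC against control was -2.49 and was called, with a limma adjusted p of 0.0222. Of all genes, 15.5% were called lower in that setting. Without both control 1 and IR+LYC 2, a choice made after the values were seen, no member was called in any comparison.

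Klf5 (chr14:99298691-99315036, plus strand) was the steadiest member, at 55.5, 50.9 and 61.1 FPKM in the controls, at 60.7, 50.8 and 65.8 in the IR libraries, and at 48.4, 59.2 and 51.9 in IR+LYC. Its groups overlapped as deposited and per epithelial marker. Per recovered read total, IR was above control with no overlap, at 60.3 to 63.6 against 48.5 to 54.9, as for 26.0% of all genes tested. The difference was 0.08 in IR against control (SE 0.15, 95% interval -0.26 to 0.41, limma adjusted p = 0.841). The log2 ratio of Klf4 to Klf5, the pair of the villus and the crypt, was 0.94, 0.76 and 0.87 in the controls. It was -0.23, -1.52 and -0.22 in the IR libraries, and -1.69, 0.31 and -1.39 in IR+LYC. All 3 controls lay above all 6 irradiated libraries, of which IR+LYC 2 came nearest to them. For how many other gene pairs this holds was not computed. Means were 0.86 ± 0.09, -0.66 ± 0.75 and -0.92 ± 1.08, and the exact permutation test over the 3 groups gave p = 0.0643, 0.304 after adjustment over the 5 ratios. The smooth muscle marker sum in the opening description was also higher in 5 of the 6 irradiated libraries than in every control, with IR+LYC 2 the exception. Its part in the values of Klf4 was not tested. The epithelial marker sum, 3652 to 4501 FPKM in control libraries, 3838 to 4069 in the IR libraries and 3296 to 3831 in IR+LYC, overlapped between the groups.

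**Figure D2:**
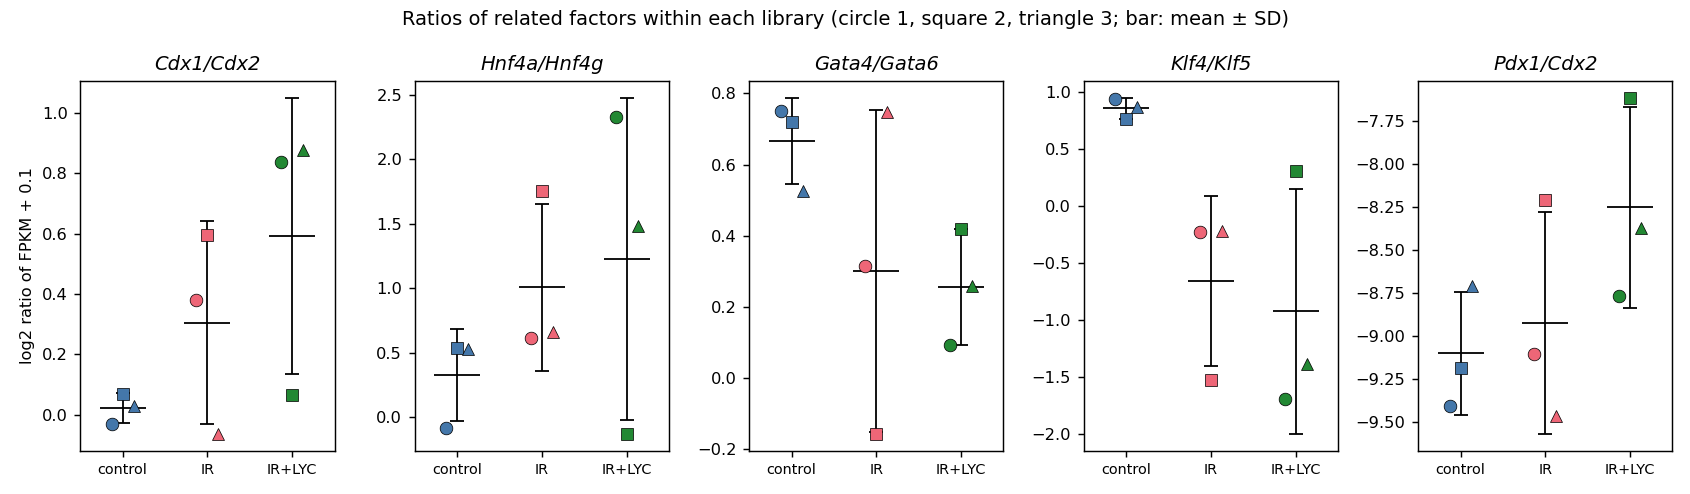
Log2 ratios of FPKM + 0.1 (vertical axes) of 5 pairs of members within each library, by group, with bars for the mean ± SD of 3 libraries. The Klf4 to Klf5 ratio is 0.76 to 0.94 in the controls and 0.31 or lower in every irradiated library. The other 4 ratios overlap between control and at least 1 irradiated group. Of them, Hnf4a to Hnf4g is above all controls in IR, and Gata4 to Gata6 is below all controls in IR+LYC. The share of other gene pairs that separate in these ways was not computed.

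Onecut2 and Pdx1 were too low for the test across genes, which needed 0.5 FPKM in 3 libraries. Onecut2 (chr18:64340364-64398488, plus strand) was at 1.16, 0.136 and 0.0877 FPKM in the controls, at 0.0798, 0.0631 and 0.253 in the IR libraries, and at 0.1004, 5.61 and 0.0399 in IR+LYC. These values rest on 274, 32 and 19 reads, on 21, 19 and 62 reads, and on 38, 1145 and 11 reads. Only control 1 and IR+LYC 2 exceeded 1 FPKM, so the high libraries came from different groups. Fabp6, the ileal bile acid binding protein, was below 1 FPKM in those same 2 libraries, at 0.593 FPKM (5 reads) in control 1 and 0.274 FPKM (2 reads) in IR+LYC 2. In the other 7 libraries Fabp6 ran from 89.9 to 1561 FPKM. Slc10a2, the ileal bile acid transporter, which mouse GATA4 is known to repress in the jejunum, was named after its values were seen. It was at 2.52, 20.3 and 21.7 FPKM in the controls, at 13.9, 11.2 and 5.14 in the IR libraries, and at 1.96, 1.31 and 1.37 in IR+LYC. It was thus low in all 3 IR+LYC libraries, whether Onecut2 was high or low, and its differences did not pass (limma adjusted p = 0.319 in IR+LYC against control). With no filter on low values, Onecut2 differed by -0.30, 0.80 and 0.50 in IR against control, IR+LYC against IR and IR+LYC against control, with limma adjusted p-values of 0.918, 0.976 and 0.762.

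**Figure D3:**
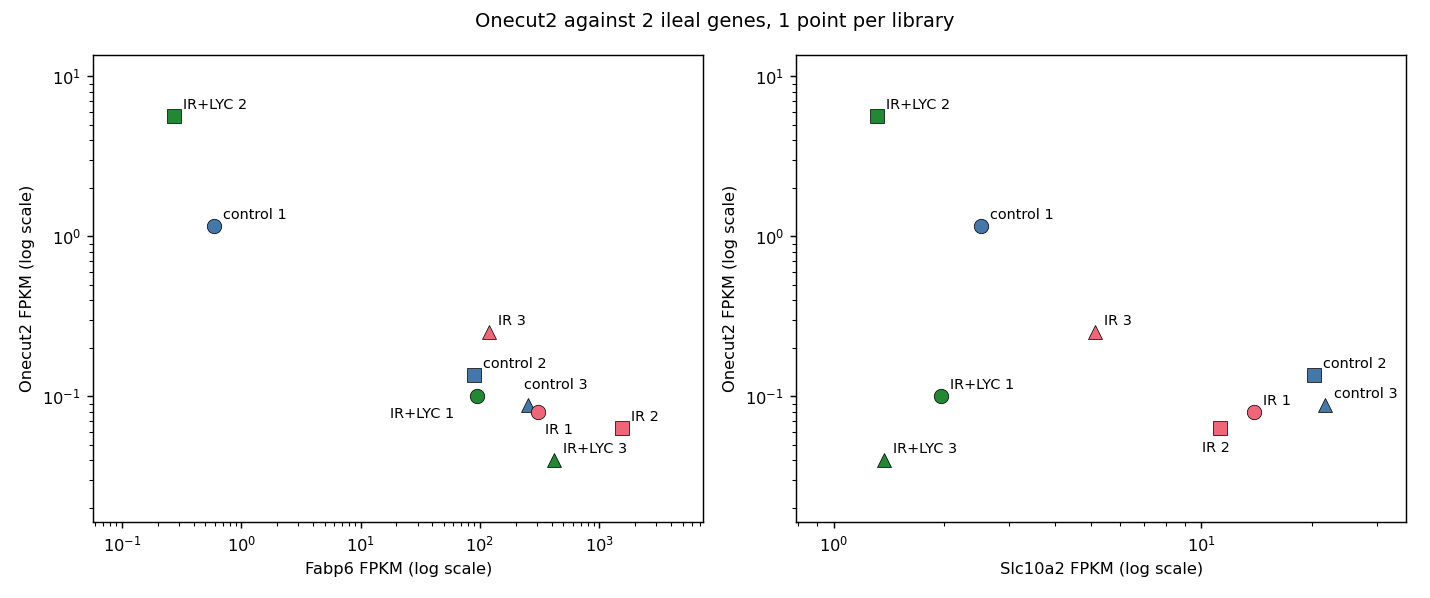
Onecut2 (vertical axes) against Fabp6 (left) and Slc10a2 (right), all in FPKM on log scales, with 1 labelled point per library. Control 1 and IR+LYC 2 stand apart with Onecut2 above 1 FPKM and Fabp6 below 1 FPKM, whereas Slc10a2 is also low in IR+LYC 1 and IR+LYC 3.

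Pdx1 (chr5:147269959-147275848, plus strand), the gene of the duodenum and pancreas, was at 0.0263, 0.0528 and 0.143 FPKM in the controls, at 0.0471, 0.165 and 0.0506 in the IR libraries, and at 0.0492, 0.304 and 0.135 in IR+LYC. Its reads numbered 1, 2 and 5, then 2, 8 and 2, then 3, 10 and 6. The highest count, 10 in IR+LYC 2, has an exact 95% Poisson interval of 4.80 to 18.4, and the lowest, 1 in control 1, one of 0.0253 to 5.57, counting error only. Pdx1 was therefore barely above detection at this depth, also in control 1, where Onecut2 was high. Cdx2 lies 24956 bases from Pdx1 on the same chromosome, and was far more abundant in every library. With nothing added, the mean log2 ratio of Pdx1 to Cdx2 was -10.62 ± 1.10 in the controls, -10.22 ± 1.16 with IR and -9.19 ± 1.17 with IR+LYC. With 0.1 FPKM added, a constant above the level of Pdx1 in 5 of 9 libraries that largely sets the value, it was -9.10 ± 0.36, -8.93 ± 0.64 and -8.25 ± 0.59 (exact permutation p = 0.211, 0.304 adjusted). Plut, an antisense transcript that overlaps Pdx1, was at 0.0855 to 1.43 FPKM and above Pdx1 in 9 of 9 libraries.

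Markers of neighbouring organs and segments were set beside the members. Of 12 pancreas markers, Cela3b, Ptf1a, Ins1 and Ins2 were at 0 in all libraries, and the 12 summed to 0.595 to 1.55 FPKM, with Iapp, at 0.218 to 1.05 FPKM, the largest part in all but IR+LYC 1. Cpb1, Ctrb1 and Try4 did not exceed 0.377 FPKM. Of 15 gastric genes, Tff1, Gast and Atp4b were at 0 in all libraries, 1 was not matched by symbol, and the sum was 1.498 to 2.11 FPKM in control libraries, 1.67 to 1.82 in the IR libraries and 2.63 to 8.02 in IR+LYC. Most of that sum was Gkn3, at 6.86, 2.22 and 2.27 FPKM in IR+LYC 1 to 3 and at most 1.86 in the other libraries. Gkn3 did not pass (limma adjusted p = 0.994 against IR and 0.346 against control). With no overlap, 4.25% of all genes were higher in IR+LYC than in IR and 8.87% than in control. Sox2, Tff2 and Pgc stayed at or below 0.473 FPKM. A link of the gastric sum to Cdx2 was not tested. Among 14 colonic genes, Aqp8, Hoxa13, Hoxd11, Hoxd12 and Hoxd13 were at 0 in all libraries. Car4, Slc26a3 and Aqp4, which the small bowel also expresses, were among the most abundant, 0 of the 4 tested passed, and the colonic sum was 96.3 to 127 FPKM in control libraries, 32.7 to 79.1 in the IR libraries and 24.3 to 152 in IR+LYC. The homeobox genes Onecut1 and Cdx4, relatives of 2 members, were at 0 in all 9 libraries.

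Across the 3 comparisons, 0 of 8 tested members passed limma's adjusted threshold of 0.05 in any. Over all genes, 0.0195% (3 genes) passed in IR against control, 0% (0 genes) in IR+LYC against IR and 0.0195% (3 genes) in IR+LYC against control. At an unadjusted p under 0.05, the members counted 0, 0 and 1 (Klf4), against 8.34%, 4.26% and 14.1% of all genes, of which 4.44%, 1.99% and 7.54% were lower. Groups did not overlap in IR against control for 2 of 8 members (Gata6 and Klf4, both lower), beside 28.1% of all genes (14% lower, 14.1% higher). For IR+LYC against IR this held for 0 of 8, beside 7.45% (3.2% lower, 4.25% higher). For IR+LYC against control it held for 3 of 8 (Cdx2, Hnf4a and Klf4, all lower), beside 17.5% (8.64% lower, 8.87% higher). Of the members counted here, Klf4 alone was counted in both comparisons with control under all 3 scalings. The share of all genes that meet these conditions together was not computed. Per recovered read total, Klf4 alone was lower with no overlap in IR against control (7.24% of all genes) and in IR+LYC against control (5.81%). Cdx1 and Klf5 were then higher in IR (26.0% of all genes) and 0 members in IR+LYC (10.7%). Per epithelial marker, Klf4 was lower (13.7%) and Cdx1 higher (8.97%) in IR, while Cdx2, Hnf4a and Klf4 were lower (5.67%) and 0 members higher (9.36%) in IR+LYC against control. The median difference of the 8 was -0.24 in IR against control, with 6 of 8 lower, beside -0.01 and 51.9% lower over all genes. It was -0.19 in IR+LYC against IR, with 5 of 8 lower, beside -0.01 and 51.6%. In IR+LYC against control it was -0.32, with 7 of 8 lower, beside -0.01 and 50.9%. The first and last of these share the control libraries, and the IR libraries enter the first and second. Between the irradiated groups the intervals of Hnf4g, Gata4 and Klf4 reached from -1.97 to 1.07, from -1.03 to 1.12 and from -1.81 to 1.01, so that changes of 2-fold in either direction lie within them. Those of Cdx2, Hnf4a and Klf5 were narrower, from -0.62 to 0.13, from -0.63 to 0.16 and from -0.48 to 0.19. Without IR+LYC 2, the comparison of IR+LYC with control called 3 of 8 members (Hnf4g, Gata6 and Klf4, all lower), where 26.8% of all genes were called and 15.5% were called lower. Without it IR against control called 0 of 8, with 0.637% of all genes called and 0.487% called lower. With gene-by-gene array weights, which gave IR+LYC 3 a weight of 5.33 against 0.431 and 0.125 for the others of its group, 3 of 8 members passed in IR+LYC against IR and 6 of 8 in IR+LYC against control, where 28.9% and 51.0% of all genes passed.

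**Figure D4:**
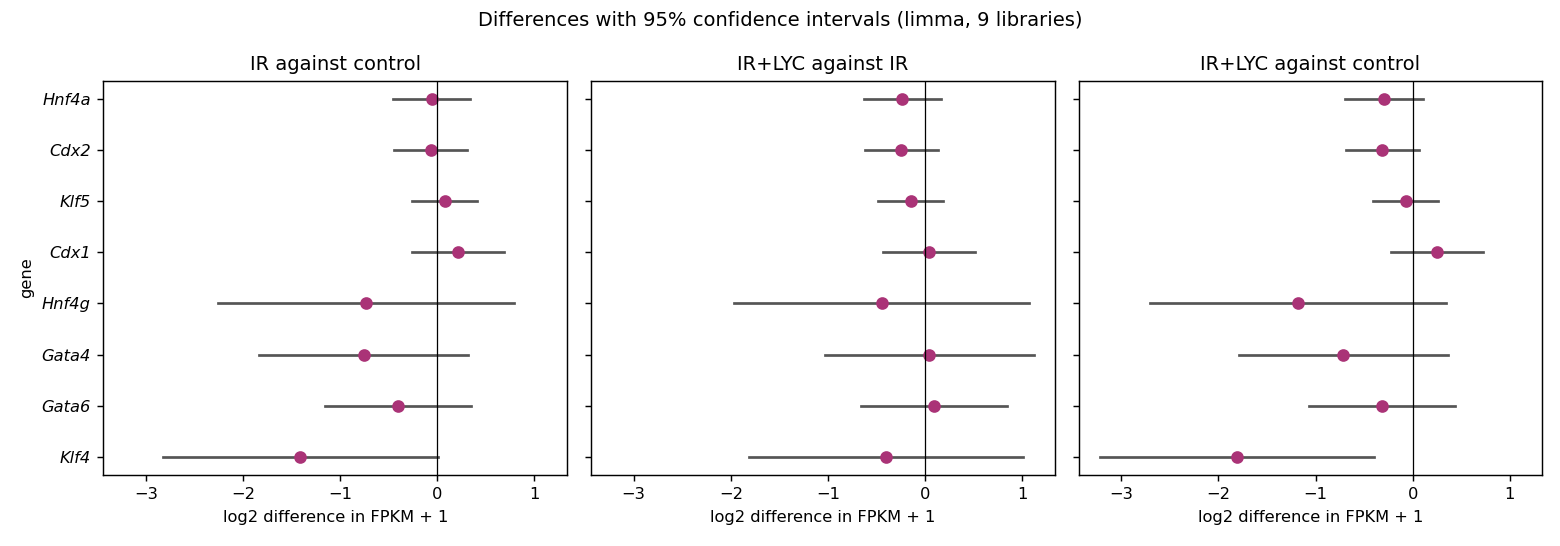
Log2 differences on log2(FPKM + 1) of the 8 tested members (points) with 95% confidence intervals (lines) in the 3 comparisons, from limma on 9 libraries. The interval of Klf4 lies below 0 in IR+LYC against control, reaches 0.00249 in IR against control, and all other intervals include 0.

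The 4 members with wide spread shared an order of libraries. IR 2, IR+LYC 1 and IR+LYC 3 were the 3 lowest libraries for Gata4, Gata6, Hnf4g and Klf4 under each of 3 scalings: as deposited, per recovered read total and per epithelial marker. They were also lowest for Cdx2 and Hnf4a as deposited, and for Hnf4a per epithelial marker. The share of all genes with that order was 21.1%, 9.14% and 17.8% under the 3 scalings. For Cdx1 the same libraries were the 3 highest under all of them, as for 15.1%, 39.6% and 12.6% of all genes. These libraries were singled out after their values were seen, and the order is a description.

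**Figure D5:**
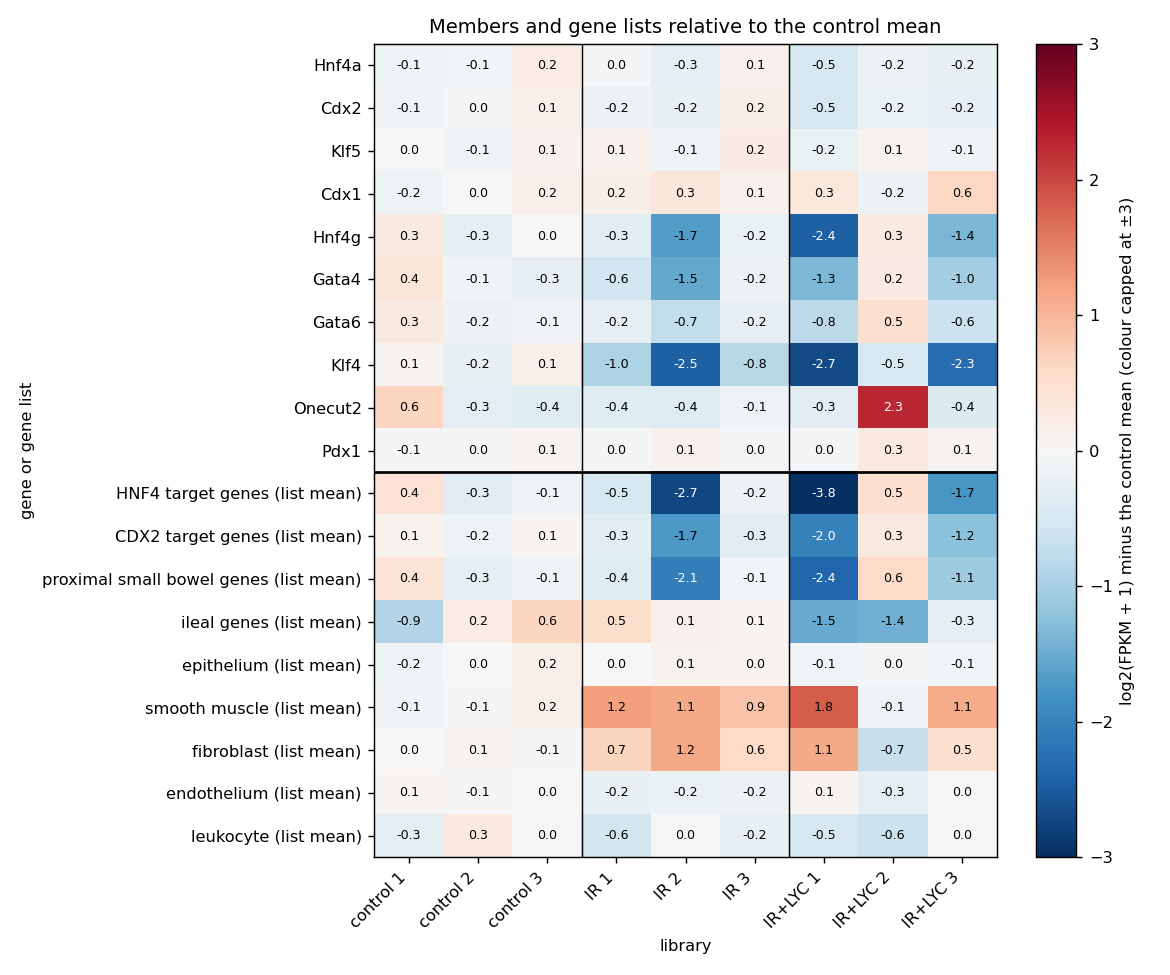
Log2(FPKM + 1) minus the mean of the 3 controls (colour and numbers) for the 10 members, above the line, and for the means of 9 gene lists, below it, in each library (columns). Hnf4g, Gata4, Gata6 and Klf4 are lowest in IR 2, IR+LYC 1 and IR+LYC 3, as are the HNF4, CDX2 and proximal lists, while Hnf4a, Cdx2 and Klf5 stay within 0.5 of the control mean.

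Other transcription factors of the gut epithelium were listed beside the members. Of 28, 25 entered the test and 0 passed in any comparison, with 12 higher and 13 lower in IR against control and a median of -0.01. Elf3, an epithelial ETS factor, had the highest mean of the list over the 9 libraries. It was at 119.7 ± 10.3 FPKM in control libraries, 129.8 ± 5.68 in the IR libraries and 125 ± 13.2 in IR+LYC. Creb3l3, a factor of lipid metabolism that is itself an HNF4 target, was at 182, 110.5 and 128 FPKM in control libraries, 99.5, 28.4 and 139.8 in the IR libraries, and 14.2, 222 and 46.3 in IR+LYC. Its 3 lowest libraries were those of Hnf4g, and its difference in IR+LYC against control was -1.34 (SE 0.94, limma adjusted p = 0.458). Isx, an intestinal homeobox gene, was at 48.6 ± 11.8, 44.1 ± 13.6 and 38.1 ± 13.5 FPKM in the 3 groups. Vdr, the vitamin D receptor, was at 81.9 ± 11.7, 62.8 ± 19.4 and 58.1 ± 23.9 FPKM. The medians of this list were -0.02 in IR+LYC against IR and -0.04 in IR+LYC against control.

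Genes known as HNF4 targets, whose binding was not measured here, were lower in IR than in control for 10 of 10 with a median of -1.02, and 0 of 10 passed. Against the control mean, their list mean of log2(FPKM + 1) was -0.54, -2.73 and -0.17 in IR 1 to 3. In IR+LYC against IR the median difference was -0.52 and in IR+LYC against control -1.72, with 10 of 10 lower in each and 0 passing. Of all genes, 51.9%, 51.6% and 50.9% were lower in the 3 comparisons. Fabp2, the intestinal fatty acid binding protein, was at 9719, 9385 and 9652 FPKM in control libraries, 8584, 1658 and 9919 in the IR libraries, and 521, 5416 and 2873 in IR+LYC. IR 2 and IR+LYC 1 were lowest, as for Hnf4g, and only the comparison of IR+LYC with control had no overlap, with a difference of -2.25 (SE 0.93, limma adjusted p = 0.347). Among all genes tested, 8.64% were lower with no overlap in that comparison. Apoa1, an apolipoprotein of chylomicrons and HDL, was at 7539 ± 1559 FPKM in control libraries, 4369 ± 2812 in the IR libraries and 3589 ± 4157 in IR+LYC. Fabp1 was at 1666 ± 1240.0, 1097 ± 986 and 1675 ± 2438 FPKM, and Apoa4 at 709 ± 381, 321 ± 271 and 808 ± 1218. Over the same libraries Hnf4a ran from 154 to 249 FPKM and Hnf4g from 30.6 to 207. Their part in the values of these genes was not tested.

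Genes known as CDX2 targets were lower in IR than in control for 7 of 7, beside 51.9% of all genes, with a median of -0.50, and 0 of 7 passed. Their list mean of log2(FPKM + 1) against the control mean was -0.315, -1.73 and -0.315 in IR 1 to 3. Their medians were -0.23 in IR+LYC against IR and -0.80 in IR+LYC against control, with 6 of 7 lower in each and again 0 passing. The exception, Muc2, the gel-forming mucin of goblet cells, named after its values were seen, was at 17.4, 27.9 and 28.2 FPKM in the controls, at 20.7, 25.9 and 21.1 in the IR libraries, and at 45.2, 37.9 and 31.6 in IR+LYC. Every IR+LYC library was above all others, with differences of 0.73 from IR and 0.64 from control (limma adjusted p = 0.994 and 0.327). Among all genes tested, IR+LYC was higher with no overlap for 4.25% against IR and for 8.87% against control. Sis, the sucrase-isomaltase of the brush border, was at 1130.5, 626 and 683 FPKM in control libraries, 607, 112 and 633 in the IR libraries, and 47.0, 1068 and 123 in IR+LYC. Cdh17, an intestinal cadherin, was at 339 ± 17.4 FPKM in control libraries, 245 ± 63.9 in the IR libraries and 218 ± 136 in IR+LYC. Gucy2c, the guanylin receptor, was at 87.9 ± 9.90, 65.0 ± 16.6 and 69.9 ± 42.5 FPKM, and lactase, Lct, at 241 ± 97.6, 86.4 ± 75.2 and 97.6 ± 134. Cdx2 ran from 65.0 to 106 FPKM over the same libraries, and its part in the values of these genes was not tested.

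Of 11 proximal small bowel genes, 8 were lower in IR than in the controls, beside 51.9% of all genes, with a median of -1.11. The median was -0.20 in IR+LYC against IR and -1.25 in IR+LYC against control, and 0 passed in any comparison. Their sum was largest in IR+LYC 2, at 10654 FPKM, and in control 1, at 7361, the 2 libraries with Onecut2 above 1 FPKM, and 334 to 5035 in the others. Fabp1, Apoa4 and Rbp2, at 4483, 2210 and 3095 FPKM, made up most of the sum in IR+LYC 2. The list mean of log2(FPKM + 1) was also highest in these 2 libraries, at 6.90 and 6.73. Not every gene followed. In IR+LYC 2, Cybrd1 was at its lowest of all libraries, 0.861 FPKM, and Npc1l1, at 149, was below every control. Rbp2, which carries retinol, was at 1503 ± 575 FPKM in control libraries, 1076 ± 780.5 in the IR libraries and 1212 ± 1638 in IR+LYC, and ketohexokinase, Khk, at 220.0 ± 55.3, 113 ± 65.2 and 143 ± 160.5. Fabp1, Apoa4, Lct, Creb3l3 and Isx each stand in 2 of these lists. The 9 ileal genes had medians of -0.20, -1.13 and -1.42 in the 3 comparisons, with 0 passing. Beside 51.9%, 51.6% and 50.9% of all genes, 6, 9 and 7 of the 9 were lower. The 3 with positive differences in IR against control were Fabp6, at 3.54 (limma adjusted p = 0.663), Fgf15, a hormone that signals bile acid status, at 1.62 (limma adjusted p = 0.481), and the gut hormone gene Pyy, at 0.14 (limma adjusted p = 0.941). Fgf15 and Pyy were named after their values were seen. Fgf15 was at 0, 0.0373 and 0.222 FPKM in the controls, at 2.51, 4.24 and 1.02 in the IR libraries, and at 0.625, 0 and 3.30 in IR+LYC. All IR libraries were above all controls, as for 14.1% of all genes tested, and the 2 libraries with Onecut2 above 1 FPKM were at 0. The bile acid exporter subunit Slc51a was at 86.7 ± 29.0, 68.1 ± 9.78 and 35.0 ± 20.3 FPKM, and Slc51b at 93.7 ± 23.0, 80.7 ± 17.6 and 44.9 ± 40.5. Amn, of the vitamin B12 receptor, was at 143 ± 13.7, 74.6 ± 39.7 and 55.9 ± 36.9 FPKM. Not every ileal gene was low in control 1 and IR+LYC 2. Amn was at 140 FPKM in control 1, between the other controls, and at 91.1 in IR+LYC 2, the highest of its group. Slc51a, at 53.3 and 53.9 FPKM, and Slc51b, at 67.7 and 89.2, were lowest of the controls in control 1. In IR+LYC 2 both were highest of the IR+LYC group. Medians in IR against control were 0.02 for epithelial, 1.03 for smooth muscle, 0.84 for fibroblast, -0.15 for endothelial and -0.15 for leukocyte markers, with 0 passing, and the part of these cells in the members' values was not tested.

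The genes whose pattern over the 9 libraries was most like each member were ranked by Pearson r of log2(FPKM + 1) among 7221 genes with a mean of 5 FPKM, as a description of points that share libraries, depth and groups. For Hnf4g they included Apob, the apolipoprotein of chylomicrons (r = 0.998, Spearman's rho = 0.983), and Pla2g12b (r = 0.998, rho = 1). Gata4 was nearest to Slc7a8 and its partner subunit Slc3a2, an amino acid exchanger (r = 0.987 and 0.984), and to Gramd1b (0.981). Klf4 was nearest to Tbx3 (0.996), Tollip (0.994) and Bach1 (0.992), and Gata6 to Usp33 (0.994), Atl2 (0.992) and Cdip1 (0.991). Members of narrow range had lower leading values. Hnf4a was nearest to Cant1 (0.978), Snx15 (0.973) and Mkrn1 (0.956), and Cdx2 to Psmd8 (0.960), Tex264 (0.960) and Nlrp6 (0.958). Klf5 was nearest to Dnajc30 (0.949), Fblim1 (0.942) and Brap (0.930). Cdx1 was nearest to Mrpl23 (0.985), Snrpa (0.978) and Rbms2 (0.975).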

How the data were processed

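The 9 libraries, 3 per group, were made from total RNA of intestine. Reads were trimmed with fastp and aligned with HISAT2 2.0.5, per the submitters' processing notes. The genome build and annotation are not given in the sources used here. Positions of 8 of the 10 members were identical in GENCODE M21 (GRCm38), and those of Gata6 and Onecut2 differed, so printed positions are those of the deposited table. The authors deposited FPKM values, which are neither counts nor log2 values, for 54532 genes. All 202261 of 202261 values above 0 came out as whole reads, within 0.01 read, when divided by the step of 1 read per gene length. These recovered reads give the depth, and the authors' divisor was 0.854 to 1.26 times the read total.

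For this report, log2(FPKM + 1), a scale that understates the change of low genes, was fitted with limma 3.58.1 (R 4.3.3), using a trend of variance on mean and all 3 groups in 1 model (8.18 total degrees of freedom, 6 of them residual). The 15391 genes with 0.5 FPKM in at least 3 libraries entered, with Benjamini-Hochberg adjustment over all of them. The 5 ratios, with 0.1 FPKM added to both genes, were tested by an exact two-sided permutation test. The procedure was tested on simulated data. Alternatives changed the pseudocount, filter, scaling, samples, weights or model. The read total scaling, the gene-by-gene array weights and leaving out control 1 with IR+LYC 2 were chosen after seeing the data. Same-numbered libraries of different groups deviated from their group means with correlations of -0.65 to 0.38. Libraries with other numbers did so with -0.61 to 0.64, so no pairing by number was found. With so few libraries, this check cannot exclude one.

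All 10 members were named, with the 3 genes most like each tested member by Pearson r, the 4 genes of each list with the highest mean FPKM, any list gene past the threshold, and Fabp6. A few genes that this rule names are not reported here. Members and lists were chosen with earlier results of these data known. Some genes fall outside this rule: Slc10a2, Muc2, Fgf15, Pyy, antisense partners and genes at 0 were named after their values were seen. Plots used matplotlib 3.10.9 in Python 3.11.15.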

Additional observations from a re-analysis of the deposited data

How the results depend on the processing

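Over 22 other settings, 493 of 528 member differences kept their direction and their side of the threshold. So did all 55 ratio tests over 11 settings, with a smallest adjusted p of 0.107. Members passed in 2 settings. With gene-by-gene array weights, 3 (Cdx1 and, lower, Hnf4g and Klf4) passed in IR+LYC against IR, with 28.9% of all genes, and 6 in IR+LYC against control, with 51.0%. Without IR+LYC 2, 3 passed in IR+LYC against control, where leaving out each library in turn gave 0 to 3.
The 3, 0 and 3 genes called in IR against control, IR+LYC against IR and IR+LYC against control became 1, 0 and 0 with a pseudocount of 0.1, 7, 0 and 6 with no filter, and 1, 0 and 1 with a mean of 5 FPKM. They became 3, 0 and 1 both with epithelial marker scaling and with recovered read totals, 100, 0 and 1 with only the 2 groups compared, and 0, 0 and 0 with limma-voom on recovered reads. Array weights gave 447, 4447 and 7855 gene by gene, and 742, 0 and 1 by REML, which did not converge and prompted the gene-by-gene estimate. Leaving out 1 library gave 0 to 98, 0 to 0 and 0 to 4120, the highest without IR+LYC 2. Without both control 1 and IR+LYC 2 the counts were 16, 0 and 83. The cause was not tested. No paired numbering was found. With a replicate block, 0, 0 and 0 genes were called, and 0 members.
Some differences changed sign between settings, and not only those near 0. Klf5 in IR+LYC against control was 0.0016 with epithelial marker scaling and 0.17 with read totals, which also put Cdx2 at 0.13 and Hnf4a at 0.14 in IR against control. Read totals moved the median of all genes by 0.149, 0.0300 and 0.178 in the 3 comparisons. In IR+LYC against IR, Gata4 and Gata6 were -0.52 and -0.34 with gene-by-gene weights, -0.45 and -0.21 with REML weights, and -0.43 and -0.30 without control 1 and IR+LYC 2. Leaving out 1 library gave -0.21 to 0.0114 for Cdx2, -0.15 to 0.0464 for Hnf4a and -0.0032 to 0.18 for Klf5 in IR against control. In IR+LYC against IR it gave -0.14 to 0.25 for Cdx1, -1.18 to 0.18 for Hnf4g, -1.08 to 0.0328 for Klf4, -0.43 to 0.36 for Gata4 and -0.30 to 0.33 for Gata6. Depth limits Pdx1, with at most 10 reads a library.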
